A study of Mus musculus with 9 samples.

Results

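Large macrophages of the pleural and peritoneal cavities are resident cells that carry the transcription factor GATA6 and a characteristic set of secreted and surface proteins. The 7 genes Prg4, Alox15, Gata6, F5, Icam2, Selp and Timd4, known from these cells in mice, were followed through 9 libraries of lung macrophages. They were chosen by symbol among the 54281 genes of the table, with earlier results of these libraries known, because ozone 24 h replicate 2 and ozone 72 h replicate 1 carried them and the other 7 libraries did not. All 7 have a row in the table.

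The cells came from female wild-type mice aged 12 weeks, supplied by Jackson Labs; no strain is given in the sources used here. Air was breathed by 3 of the 9 mice, and the other 6 breathed 0.8 ppm ozone for 3 h in a whole-body chamber. Lungs of the ozone mice were sampled at 24 h (3 mice) or at 72 h (3 mice), after ketamine and xylazine. Each library is 1 mouse, so n = 3 in each group. Macrophages were washed out of the air spaces by lavage with massage, red cells were lysed, and total RNA was sequenced without sorting.

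In serous cavities, Gata6 is switched on under retinoic acid that mesothelial and other stromal cells supply, and it governs much of the identity of the large macrophages there. These cells clear dying cells, gather on injured serosal surfaces, and are known in mice for clotting factor V and for the lipid-oxidising enzyme 12/15-lipoxygenase. Alveolar macrophages, the resident macrophages of the air spaces, have a different identity governed by PPARG. In unsorted bulk RNA, fewer cells of a type and less RNA per cell cannot be told apart.

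The libraries held 47095543 to 60248305 counts. Levels are given as CPM, counts scaled to library size with TMM factors, and 3 counts, the most that a count of 0 allows, were worth 0.0499 to 0.0632 CPM. The tissue label held by its markers: 16 alveolar macrophage genes, led by Chil3 and Lpl, summed to 25962 CPM in 24 h replicate 2 and 30034 CPM in 72 h replicate 1, against 33506 to 41246 CPM in the other 7 libraries. The same 2 libraries had 5.25% and 6.18% of their counts on mitochondrially encoded genes, against 2.71% to 3.07% in the other 7. Air replicate 2 had 2.42 CPM of Xist, the X-inactivation RNA, against 883 to 1482 CPM in the other 8, which goes against its label of a female mouse. Results that rest on any of these 3 libraries are given with and without them.

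On GRCm38 with GENCODE M21, all 7 members are annotated as protein-coding genes. Prg4 lies on chromosome 1 at 150449412-150466165 on the minus strand. Selp (chromosome 1, 164115264-164150026) and F5 (chromosome 1, 164151838-164220277) are neighbours on the plus strand, with 1811 bases between them. On chromosome 11 lie Timd4 (46810800-46844332, plus strand), Alox15 (70344152-70352031, minus strand) and Icam2 (106377656-106388075, minus strand).

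The RefSeq promoter table (GRCm38.p6) held an entry for 3 of the 7 members, Selp, F5 and Timd4. Their 250 bases before the transcription start, all on the plus strand, are shown because these members were high together in the same libraries. The capitals mark the letters AGGTCA on either strand, the half-site bound by nuclear receptors such as those for retinoic acid.
Selp, chr1:164115014-164115263: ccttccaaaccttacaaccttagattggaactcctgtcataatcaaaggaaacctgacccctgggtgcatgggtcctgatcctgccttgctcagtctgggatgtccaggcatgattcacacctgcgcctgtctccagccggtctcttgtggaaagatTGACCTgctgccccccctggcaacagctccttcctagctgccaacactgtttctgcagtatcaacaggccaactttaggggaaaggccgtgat
F5, chr1:164151585-164151834: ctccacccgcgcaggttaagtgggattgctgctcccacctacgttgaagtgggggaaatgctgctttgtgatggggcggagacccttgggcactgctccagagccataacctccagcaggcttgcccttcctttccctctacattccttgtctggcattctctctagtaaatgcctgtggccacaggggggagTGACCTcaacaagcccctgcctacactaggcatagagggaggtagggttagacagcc
Timd4, chr11:46810549-46810798: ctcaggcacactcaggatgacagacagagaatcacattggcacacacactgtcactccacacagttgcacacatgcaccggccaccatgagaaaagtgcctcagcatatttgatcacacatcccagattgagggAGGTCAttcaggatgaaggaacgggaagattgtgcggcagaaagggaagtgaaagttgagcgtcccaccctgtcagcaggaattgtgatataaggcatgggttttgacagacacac
The half-site stood on the minus strand 93 to 88 bases before the start in Selp and 57 to 52 bases before it in F5, and on the plus strand 116 to 111 bases before it in Timd4. Of 32851 mouse promoters cut to the same length, 14.0% held it. None of the 3 windows held a GATA motif (GATAA or GATAG with A or T before it, either strand), which 26.5% of the promoters held, or the PU.1 core GAGGAA, which 23.3% held. PU.1 is the lineage factor of macrophages. These are matches of letters in a window and no measure of binding.

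Gata6, which encodes the transcription factor that defines the large serous cavity macrophage, was the lowest member per exon length in the pair of libraries that carried them all. It stood at 2.55 CPM in 24 h replicate 2 and 3.28 CPM in 72 h replicate 1. Its other values were 0, 0.0338 and 0 CPM in the air libraries, 0.08 and 0.0421 CPM in 24 h replicates 1 and 3, and 0.294 and 0.245 CPM in 72 h replicates 2 and 3. In counts this was 123 and 165 in the pair, against 0, 2 and 0 in the air libraries, 4 and 2 in those at 24 h, and 16 and 12 in those at 72 h. The pair therefore stood above the other 7, and the remaining 72 h libraries came next.

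Prg4, which encodes lubricin, the lubricating glycoprotein of joints and serosal surfaces, had the most counts of the members in both libraries of the pair. It reached 315 CPM in 24 h replicate 2 and 401 CPM in 72 h replicate 1. The air libraries had 0.689, 0.693 and 0.831 CPM, 24 h replicates 1 and 3 had 0.56 and 0.716 CPM, and 72 h replicates 2 and 3 had 0.736 and 1.24 CPM. The lower of the pair was 254-fold above the highest of the other 7. Prg4 took 50.2% and 47.8% of all member counts in the pair, against 12.0% to 20.1% in the other 7.

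Alox15 encodes 12/15-lipoxygenase, which oxygenates arachidonic and linoleic acid. It had 150.4 CPM in 24 h replicate 2 and 251 CPM in 72 h replicate 1, against 0.0591, 0.22 and 1.2 CPM in air, 0.06 and 0.569 CPM in 24 h replicates 1 and 3, and 0.221 and 0.285 CPM in 72 h replicates 2 and 3. The lower of the pair was 126-fold above the highest of the other 7, which was air replicate 3. The air libraries alone spanned the whole range of these 7.

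F5, coagulation factor V, is the cofactor with which factor Xa forms thrombin. Its level was 66.8 CPM in 24 h replicate 2 and 103 CPM in 72 h replicate 1, against 0.0591, 0.0507 and 0.449 CPM in air, 0.14 and 0.232 CPM in 24 h replicates 1 and 3, and 0.11 and 0.204 CPM in 72 h replicates 2 and 3. The lower of the pair was 149-fold above the highest of the other 7, again air replicate 3. The pair did not overlap with any other library.

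**Figure D1:**
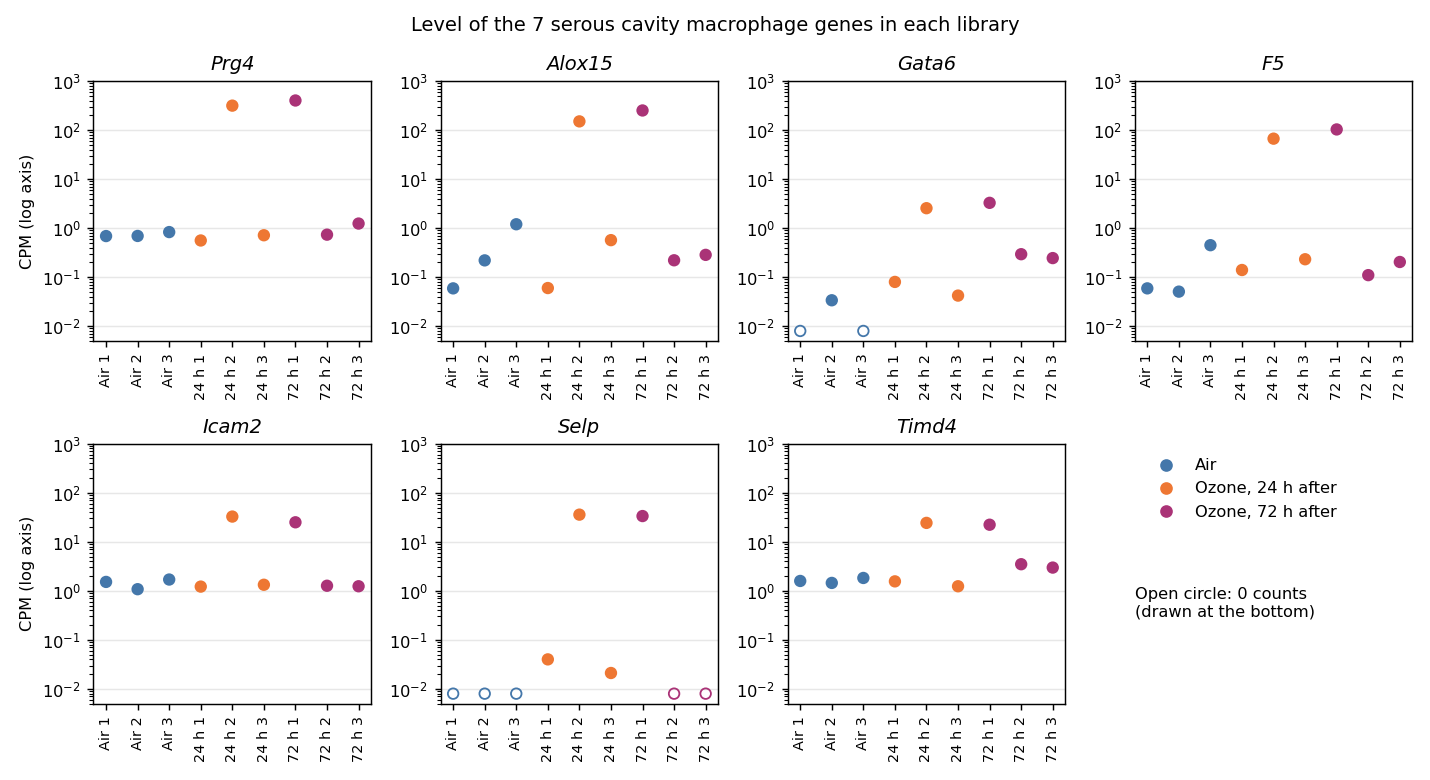
Level of each of the 7 genes in CPM (log axis) in each of the 9 libraries; a point is 1 library, colours give the group, and open circles are libraries with 0 counts. In every panel 24 h replicate 2 and 72 h replicate 1 are the highest points, with the smallest gap for Timd4, at 6.38-fold.

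The remaining members are surface proteins. Selp encodes P-selectin, an adhesion molecule best known from platelets and endothelium, which binds PSGL-1 on leukocytes. It had 35.8 CPM (1723 counts) in 24 h replicate 2 and 33.5 CPM (1685 counts) in 72 h replicate 1. The other 7 libraries had 0 counts in all air and 72 h libraries, and 0.04 and 0.0211 CPM, 2 counts and 1 count, in 24 h replicates 1 and 3. No other member came as close to absence outside the pair.

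Icam2 encodes an adhesion ligand of the integrin LFA-1. It had 32.7 CPM in 24 h replicate 2 and 25 CPM in 72 h replicate 1, against 1.52, 1.08 and 1.7 CPM in air, 1.22 and 1.33 CPM in 24 h replicates 1 and 3, and 1.27 and 1.24 CPM in 72 h replicates 2 and 3. The lower of the pair was 14.7-fold above the highest of the other 7, whose values lay close together.

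Timd4 encodes TIM-4, a receptor for phosphatidylserine on dying cells. It had 24.3 CPM in 24 h replicate 2 and 22.3 CPM in 72 h replicate 1, against 1.59, 1.45 and 1.83 CPM in air, 1.56 and 1.24 CPM in 24 h replicates 1 and 3, and 3.49 and 2.98 CPM in 72 h replicates 2 and 3. The lower of the pair was 6.38-fold above the highest of the other 7. Outside the pair the 72 h libraries were the highest, as for Gata6.

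Divided by exon length, Prg4 and Alox15 were the highest members in both libraries of the pair and Gata6 the lowest. In CPM per kb, 24 h replicate 2 and 72 h replicate 1 had 73.7 and 93.6 of Prg4, 61.3 and 102 of Alox15, 17.2 and 13.1 of Icam2, and 11.2 and 10.3 of Timd4. F5 had 8.99 and 13.9 CPM per kb, Selp 8.11 and 7.59, and Gata6 0.392 and 0.504. Alox15 stood below Prg4 in 24 h replicate 2 and above it in 72 h replicate 1, and F5 stood below Icam2 and Timd4 in 24 h replicate 2 and above them in 72 h replicate 1. With 1 library each, these neighbours have no replicate check.

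All 7 members were higher in both libraries than in any of the other 7, as were 12.5% of the 15713 genes tested. Of the 7, 6 stood at least 4-fold above on log2(CPM + 0.5), a gap that 1.49% of the genes tested (234) showed. The members were chosen for this pattern, so these counts are a description. Selp, among the 6, did not pass the filter on low counts and is not among the genes tested. Timd4 lay just inside that limit with a gap of 2.51 on the log2 scale, and Gata6 just outside it with 1.94, although its CPM alone was 8.68-fold apart. Summed over the members, the pair reached 628 and 839 CPM (30237 and 42240 counts), against 3.53 to 6.19 CPM in the other 7 (183 to 361 counts).

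The members did not keep the same proportions between the pair. The summed level in 72 h replicate 1 was 1.34 times that in 24 h replicate 2 (95% interval 1.32 to 1.36, exact binomial; this and the intervals below cover counting error only). Alox15 was 1.67 times as high (1.62 to 1.72), F5 1.55 times (1.48 to 1.62), Gata6 1.28 times (1.01 to 1.63) and Prg4 1.27 times (1.24 to 1.30). Icam2 was lower in 72 h replicate 1, at 0.765 times (0.71 to 0.825), while Selp at 0.936 times (0.874 to 1.0) and Timd4 at 0.919 times (0.846 to 0.999) lay close to equality. Among the members, the secreted and enzymatic ones and Gata6 had ratios above 1. The 3 surface members had ratios below it, with the interval of Selp reaching 1. This split was seen after the values and was not tested. Of the other serous cavity genes described below, the surface genes Itgam (1.3) and Fgfr1 (1.34) lay above 1. Secreted Tgfb2 (0.837) lay below 1, while secreted Thbs1 (1.24) lay above it. Among the 234 tested genes past the 4-fold gap the median ratio was 0.711, with quartiles of 0.512 and 0.905, and 39 of them (16.7%) lay above 1. The 4 members above 1 are Prg4, Alox15 and F5, which are among these 39, and Gata6, which fell short of the gap. Selp was not among the genes tested.

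A further 19 genes of large serous cavity macrophages, not used to choose the members, were read in the same way, although the list was written with earlier results known. Of the 19, 16 were highest in both libraries and 10 stood past the 4-fold gap, beside 12.5% and 1.49% of the genes tested. Only 14 of the 19 were among the genes tested, and Serpinb2, Cxcl13 and Saa3, all past the gap, were not. The filter on low counts can drop genes that are high in this pair alone, so these shares are not a like background. Cxcl13, a chemokine that draws B cells to serous cavities, had 27.2 and 27.8 CPM in 24 h replicate 2 and 72 h replicate 1, against 0.0169 to 0.04 CPM in the other 7. Itgam, the integrin chain CD11b, had 175 and 228 CPM in the pair, against 6.09 to 10.8 CPM. Thbs1, the matrix protein thrombospondin 1, had 105 and 129.6 CPM, against 1.42 to 13.4 CPM. These secreted and surface genes thus separated the pair from the rest, as the members did.

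Fcna, the lectin ficolin A, had 39.4 and 55.7 CPM in the pair, against 0.169 to 0.958 CPM in the other 7. Ltbp1, which binds latent TGF-beta, had 38.7 and 53.6 CPM, against 0.04 to 0.448 CPM. Fgfr1, a fibroblast growth factor receptor, had 31.0 and 41.4 CPM, against 1.2 to 2.21 CPM. Saa3, an acute-phase protein, had 26.1 and 41.3 CPM, against 0.02 to 0.116 CPM. The remaining genes past the gap were Serpinb2, an inhibitor of plasminogen activators (13.8 and 15.0 CPM), Garnl3 (6.87 and 11.6 CPM) and Vsig4, a complement receptor (8.87 and 8.98 CPM), each at or under 1.18 CPM in the other 7.

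A further 6 of the 19 were highest in both libraries with smaller gaps. Tgfb2, a TGF-beta ligand, had 16.9 and 14.1 CPM in the pair, against 4.62 to 10.6 CPM in the other 7, and Emilin2, a matrix protein, had 222 and 239 CPM, against 72.0 to 142 CPM. Naip1 had 4.96 and 10.5 CPM, against 1.2 to 4.02 CPM. Aspa had 1.33 and 1.87 CPM, Car6, a secreted carbonic anhydrase, 0.851 and 1.13 CPM, and Rarb, a retinoic acid receptor, 0.747 and 1.07 CPM, each at or under 0.64 CPM in the other 7. Cd9, Adgre1 (F4/80) and Bhlhe40, which alveolar macrophages also express, were not set apart: Cd9 had 2597 and 2566 CPM in the pair, against 3163 to 3564 CPM in the other 7, and Adgre1 had 357 and 370 CPM, against 390.5 to 465 CPM. Bhlhe40 had 233 and 418 CPM in the pair, against 252 to 433 CPM in the other 7.

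Genes listed for other cells were high in the same pair, and whether each marks that cell type alone was not tested. For lists that include genes of alveolar macrophages, sums are over the genes under 10 CPM in every air library, a limit set after the values were seen. The 9 interstitial macrophage genes, led by C1qb and C1qa, chains of complement C1q, summed to 277 and 274 CPM in 24 h replicate 2 and 72 h replicate 1, against 11.5 to 19.8 CPM in the other 7. The 7 B cell genes, Ms4a1 the most abundant, summed to 629 and 390 CPM, against 1.2 to 5.98 CPM. The 8 T cell genes, led by Tcf7 and Cd8a, summed to 695 and 71.1 CPM, against 2.74 to 13.1 CPM. All 9, 7 and 8 of these genes were highest in both libraries, and the part of each cell type in the members' levels was not tested.

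Thymocyte genes differed most within the pair: the 5 genes, led by Rag1 and Dntt of antigen receptor rearrangement, summed to 523 CPM in 24 h replicate 2 and 3.79 CPM in 72 h replicate 1, against 0.118 to 0.713 CPM in the other 7. Of the 5, 2 were highest in both libraries of the pair. Themis, with 53.8 and 3.46 CPM in the pair against 0.0845 to 0.55 CPM in the other 7, made up most of the sum in 72 h replicate 1. Rag1 had 352 and 0.0993 CPM in the pair, the second of these within the range of the other 7 (0 to 0.1 CPM), and Rag2 and Ptcra had 0 counts in 72 h replicate 1. Hepatocyte genes, a list of 8 written after the values were seen and led by Alb and Ahsg, summed to 816 and 237 CPM in the pair, against 0.0843 to 0.306 CPM. The 3 red cell genes under the limit summed to 47.3 and 49.9 CPM, against 0.306 to 15.4 CPM, the highest of the 7 being 24 h replicate 1. The haemoglobin genes Hbb-bs (1076 and 838 CPM in the pair, 4.42 to 314 CPM in the other 7) and Hba-a1 (725 and 650.1 CPM, 3.46 to 221 CPM) led the whole red cell list. Neutrophil genes (5 without Csf3r, S100a8 the most abundant) summed to 82.3 and 66.4 CPM, against 9.87 to 23.2 CPM. Of these 5, 4 were highest in both libraries. Cxcr2 was not, with 9.14 and 15.0 CPM in the pair and 5.43 to 14.8 CPM in the other 7.

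Several of these cell types are other known sources of Selp or Icam2, and their defining genes are given for that reason. Platelet and megakaryocyte genes (9, led by Pf4 and Itgb3) summed to 43.2 and 49.4 CPM in the pair, against 1.96 to 3.74 CPM in the other 7, and all 9 were highest in both. Of the endothelial genes, the 9 without Vwf summed to 30.5 and 20.9 CPM, against 0.315 to 1.6 CPM, of which Pecam1, also present on leukocytes, made 27.1 and 14.3 CPM. The defining endothelial genes Cdh5 (0.789 and 1.11 CPM), Cldn5 (0.083 and 0.338 CPM) and Emcn (0.0415 and 0.0795 CPM) were low in the pair, and Cldn5, Emcn and Sele had 0 counts in all of the other 7. Vwf, at 84.3 and 167 CPM in the pair and 130.3 to 179 CPM in the other 7, was expressed throughout.

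Cells that line or populate serous cavities were read as well. Mesothelial genes (9 without Krt19, Msln the most abundant) summed to 18.4 and 8.38 CPM in 24 h replicate 2 and 72 h replicate 1, against 0.99 to 2.86 CPM in the other 7. Upk3b, a mesothelial surface gene, had 4.84 and 1.85 CPM in the pair and 0 counts in each of the other 7. Mast cell genes (6) summed to 29.7 and 16.0 CPM, against 1.88 to 5.79 CPM, and 5 of the 6 were highest in both. Kit was not set apart, with 3.94 and 5.6 CPM in the pair and 1.85 to 5.71 CPM in the other 7. Cpa3 had 8.87 and 3.64 CPM in the pair, against 0 to 0.0815 CPM. The mast cell protease Tpsb2 had 4.73 and 2.01 CPM, against 0 counts in the other 7. Small serous cavity macrophage genes (5, without Irf4, Ccr2 and Cd74) summed to 133 and 74.0 CPM, against 3.92 to 7.9 CPM. All 9 mesothelial and all 5 small macrophage genes were highest in both libraries.

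The B-1 cell list had 3 genes under the limit (Cd5, Zbtb32 and Ctla4), which summed to 43.0 and 21.8 CPM in the pair, against 7.42 to 13.5 CPM in the other 7, while its most abundant genes, Bhlhe41 and Spn, were expressed throughout. Eosinophil genes were low: Il5ra, also a B-1 cell gene, had 11 and 8.09 CPM in the pair, against 0 to 0.04 CPM in the other 7, while Epx, the eosinophil peroxidase, had 0 counts in the pair and Ccr3 had 0.166 and 0.0993 CPM. Set side by side, the sums in 72 h replicate 1 over 24 h replicate 2 were 1.29 (1.27 to 1.32) for the other serous cavity genes (15 under the limit), 1.14 (1.08 to 1.21) for platelets and 0.991 (0.968 to 1.02) for interstitial macrophages. They were 0.62 (0.609 to 0.631) for B cells, 0.558 (0.536 to 0.581) for small serous macrophages, 0.455 (0.404 to 0.512) for mesothelium, 0.29 (0.284 to 0.296) for hepatocytes and 0.102 (0.0988 to 0.106) for T cells. Among these ratios, that of the other serous cavity genes was nearest to the members' 1.34, but only under the limit. Over all 19 genes of that list, led by Cd9 and Adgre1, it was 1.08 (1.08 to 1.09), below that of platelets. All of these ratios compare 2 libraries, not 24 h with 72 h.

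**Figure D2:**
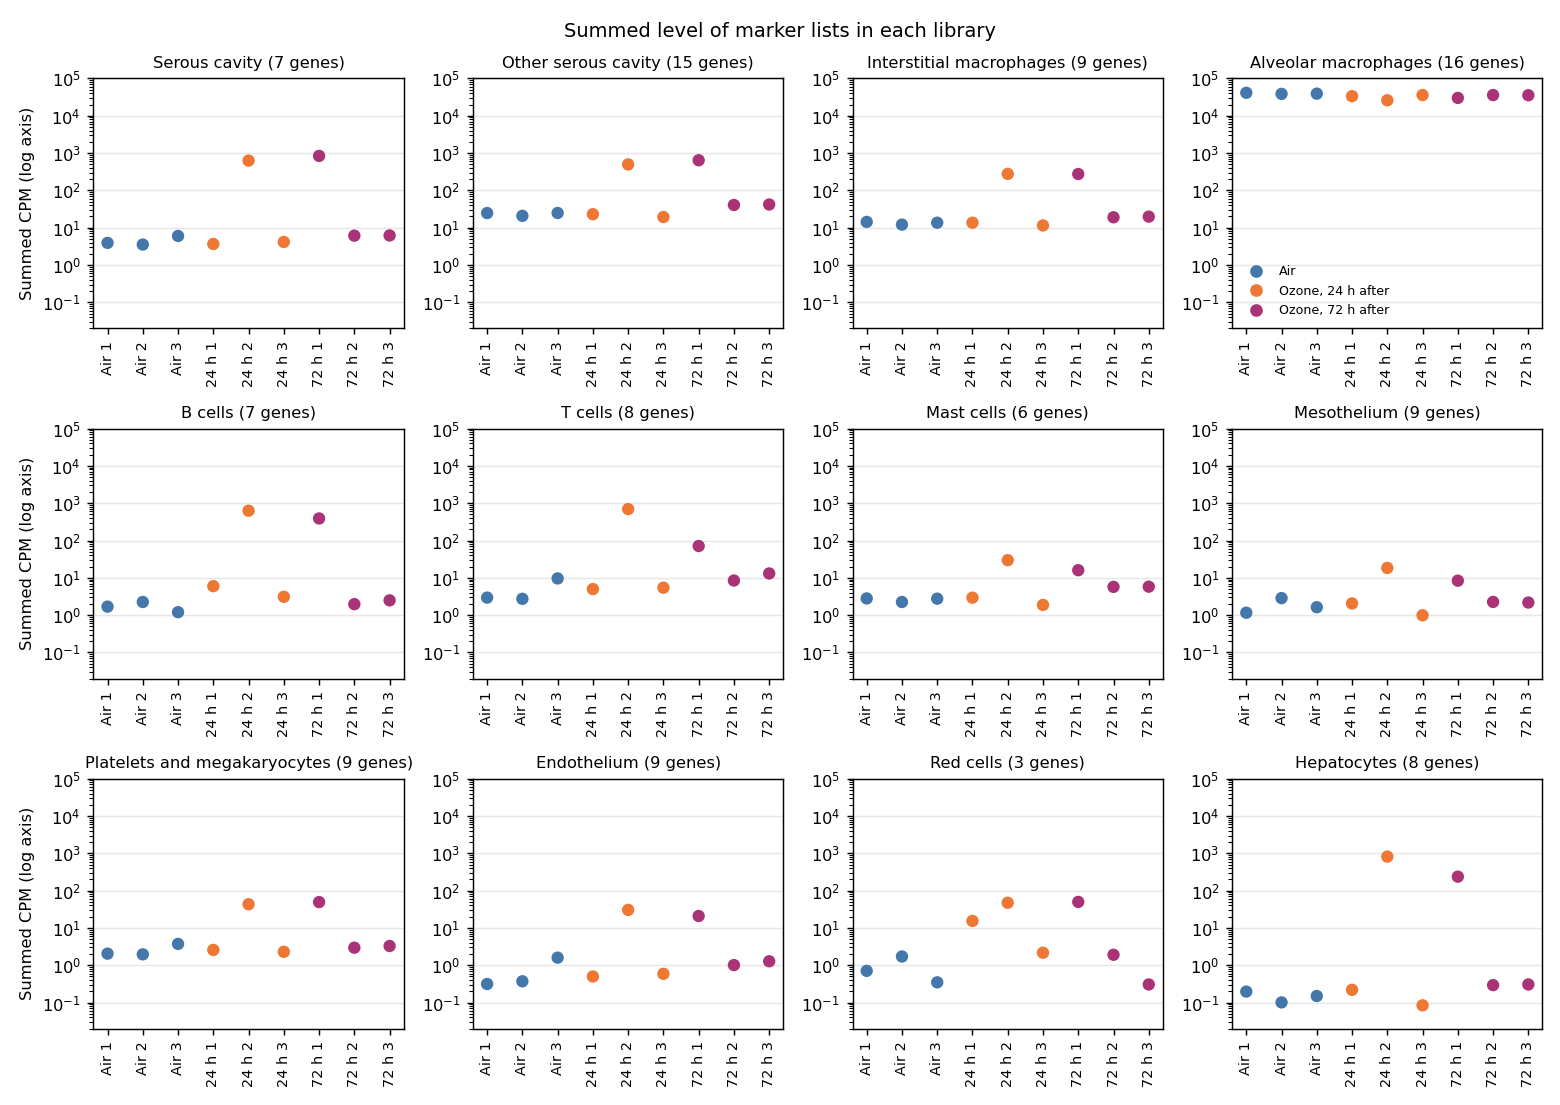
Summed level in CPM (log axis) of 12 gene lists in each of the 9 libraries; a point is 1 library, colours give the group, and sums are over the genes under 10 CPM in every air library, except for the 16 alveolar macrophage genes, which are all included. Replicate 2 at 24 h and replicate 1 at 72 h are highest in each panel other than that of alveolar macrophages, where their 25962 and 30034 CPM are lowest.

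**Figure D3:**
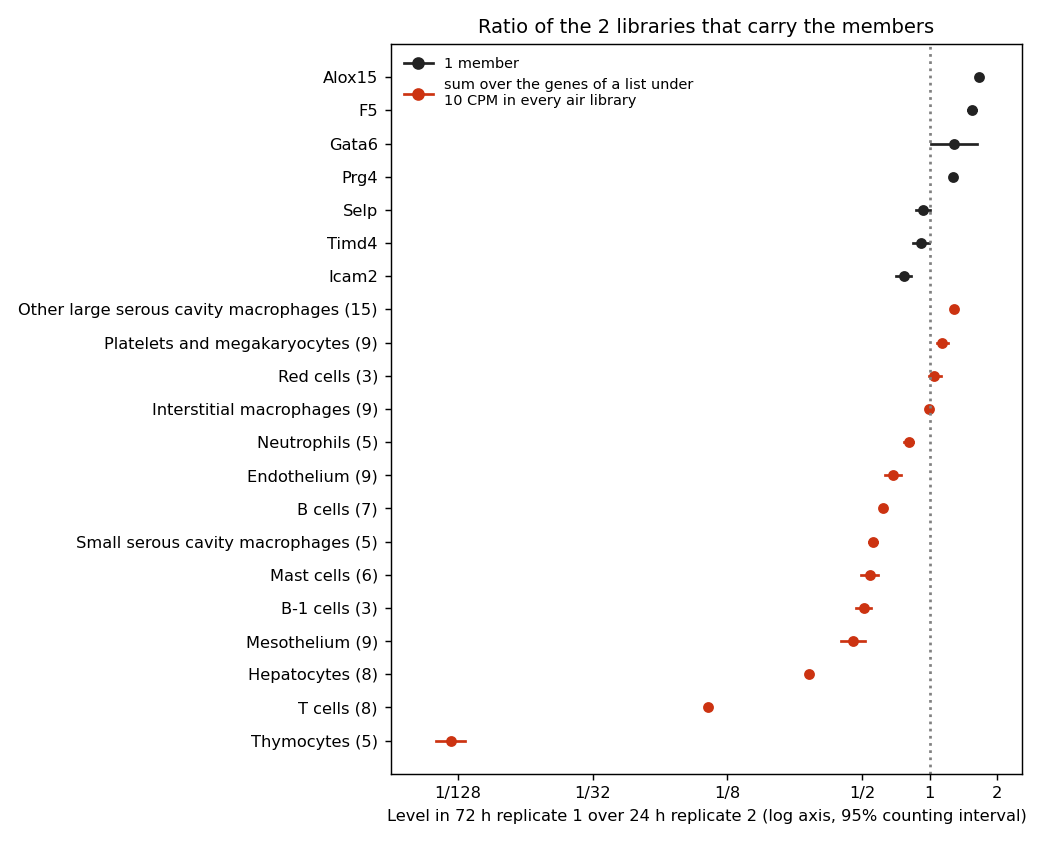
Level in 72 h replicate 1 over that in 24 h replicate 2 (log axis) for each of the 7 genes (black) and for marker lists (red, number of genes in brackets), with the 95% interval for counting error as a line. Members lie between 0.765 and 1.67, while T cell genes stand at 0.102 and thymocyte genes at 0.00726.

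Among relatives and partners of the members, some genes were expressed throughout and others were low. Under 10 CPM in every air library were 4 of 7 lipoxygenase genes, 2 of 3 ICAM genes and 2 of 3 TIM genes. So were 7 of 7 genes on the GATA list, 13 of 18 on the retinoic acid list and 11 of 16 coagulation genes, but 1 of 7 binding partners. Among lipoxygenases, Alox5, which starts leukotriene synthesis, had 369 and 385 CPM in the pair, against 393 to 525 CPM in the other 7, and its activating protein Alox5ap had 494 and 399 CPM, against 464 to 527 CPM. Alox12, the platelet-type lipoxygenase, had 1.97 and 2.82 CPM, against 0 to 0.092 CPM, the only one of 7 genes on that list past the 4-fold gap. The endothelial selectin Sele had 0.166 and 0.238 CPM in the pair and 0 counts in the other 7. Icam1 was at 92.1 and 98.6 CPM in the pair, against 98.7 to 123 CPM, and Icam5 at 1.41 and 2.68 CPM, against 1.82 to 2.8 CPM.

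Of the TIM family, Havcr2 (TIM-3) had 118 and 151 CPM in the pair, against 144 to 190 CPM in the other 7, and Havcr1 had 0.893 and 0.815 CPM, against 0.0632 to 1.16 CPM. The GATA list was led by the cofactor Zfpm1, at 7.35 and 7.69 CPM, against 4.27 to 7.96 CPM, and by Gata3, a T cell factor, at 5.27 and 1.17 CPM, against 0.0787 to 0.499 CPM. None of the 18 genes for retinoic acid receptors and enzymes stood past the gap. Rxra had 395 and 373 CPM in the pair, against 372 to 559.7 CPM in the other 7, and Dhrs3 had 231 and 262 CPM, against 253 to 358 CPM.

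Of 16 coagulation genes besides F5, 2 stood past the 4-fold gap, F2 and F13a1. F2, prothrombin, a gene of hepatocytes, had 15.3 and 6.18 CPM in 24 h replicate 2 and 72 h replicate 1, against 0.0169 to 0.04 CPM in the other 7. F13a1, the fibrin cross-linking factor that macrophages also make, had 34.7 and 25.5 CPM, against 0.295 to 0.78 CPM. F7 (411 and 431 CPM in the pair, 442 to 524 CPM in the other 7) and Pros1 (299.6 and 293 CPM, 369.5 to 448 CPM) were high in all libraries. Of 7 binding partners, Vtn, a plasma protein, had 20.1 and 9.12 CPM in the pair and 0 counts in the other 7. The LFA-1 chain Itgb2 (1546 and 1864 CPM in the pair, 1738 to 2034 CPM in the other 7) and Cd44, a receptor for lubricin (1344 and 1701 CPM, 1841 to 2225 CPM), were expressed throughout.

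Likeness across the 9 libraries was the root mean square difference of centred log2(CPM + 0.5) from the mean of the 6 tested members. It was ranked over 9778 tested genes averaging at least 5 CPM in any group, without clones, pseudogenes and antigen receptor segments. Genes that failed the filter on low counts, such as Selp, Cxcl13 and Saa3, could not appear. The nearest genes were Cd38 (0.22), Fcna (0.24), Cacna1e (0.27), Ralgps2 (0.30) and Slc28a2 (0.31). Next came Cmah (0.33), Spib (0.34), and Blk, Ltbp1 and Siglecg (each 0.35). The 6 tested members themselves lay 0.65 (F5, Icam2) to 1.24 (Gata6) from their mean pattern. Cd38, an ectoenzyme that consumes NAD, had 29.9 and 23.3 CPM in the pair, against 0.0984 to 0.349 CPM in the other 7. Spib and Blk are genes of B cells. All 10 were high in the same pair, but Fcna (1.41) and Ltbp1 (1.39) alone had ratios of 72 h replicate 1 over 24 h replicate 2 above 1, while the other 8 had 0.61 to 0.957. With 9 libraries of which 2 stand apart, such likeness is a description.

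The group comparisons were fitted across all genes with edgeR, in which 6 of the 7 members entered and Selp did not pass the filter on low counts. None of the 6 was called at an adjusted p under 0.05 at 24 h against air, where 0.00636% of all genes were called, at 72 h against air (5.47%), or at 72 h against 24 h (18.2%). At an unadjusted p under 0.05 there was 1 member, Gata6, at 24 h and at 72 h against air, and 0 at 72 h against 24 h, beside 2314, 3977 and 5238 of the 15713 genes tested. Limma voom also called 0 in each contrast, and DESeq2, which called 3.75%, 11.6% and 22.2% of the genes with an adjusted p, gave no p for any member. The median log2 fold change of the 6 was 6.31 at 24 h against air, 6.93 at 72 h against air and 0.43 at 72 h against 24 h, against medians over all genes of 0.01, -0.01 and -0.03. The contrasts with air share the same air libraries. The members were chosen as high in 1 library of each ozone group, which also sets their spread within those groups. Their calls and fold changes are therefore a description.

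Means of the groups show what those fold changes rest on. Prg4 averaged 0.738 ± 0.081 CPM in air, 106 ± 182 CPM at 24 h and 134 ± 231 CPM at 72 h (SD, n = 3 each), with 1 library of 3 carrying each ozone mean. Its log2 fold change was 7.16 ± 3.60 (SE, adjusted p = 0.382) at 24 h and 7.50 ± 3.64 (adjusted p = 0.251) at 72 h. Alox15 averaged 0.492 ± 0.616 CPM in air, 50.4 ± 86.7 CPM at 24 h and 83.8 ± 145 CPM at 72 h. In both genes the SD exceeded the mean in each ozone group, and within a group the library carrying the genes lay far from the other 2. Of the other serous cavity genes, 14 of 19 were tested and 0 were called in each contrast, with 1, 1 and 0 at an unadjusted p under 0.05 (beside the same counts over all genes) and medians of 1.62, 2.09 and 0.37.

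Without 24 h replicate 2 and 72 h replicate 1, the 7 other libraries could be compared with 3 in air and 2 at each time after ozone. Of the 15753 genes tested there, 0.0444% were called at 24 h against air (0.0254% higher), 7.12% at 72 h against air (4.46% higher) and 15.1% at 72 h against 24 h (6.59% higher). Timd4 rose at 72 h: its 3.49 and 2.98 CPM stood above the 1.59, 1.45 and 1.83 CPM in air, a log2 fold change of 1.01 ± 0.19 (SE, edgeR adjusted p = 0.0219), and above the 1.56 and 1.24 CPM at 24 h, a log2 fold change of 1.23 ± 0.22 (adjusted p = 0.0148). Both 72 h libraries were higher than each of the 5 others. The call against air was lost without air replicate 2, the library lacking Xist (adjusted p = 0.0658), without 72 h replicate 2 (0.232) and without 72 h replicate 3 (0.138). That against 24 h was lost without 24 h replicate 1 (0.0581), 24 h replicate 3 (0.0503), 72 h replicate 2 (0.138) or 72 h replicate 3 (0.0759), where a lone library is assumed to vary like those of the other groups.

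Gata6 had 16 and 12 counts in the 72 h libraries, against 0, 2 and 0 in air and 4 and 2 at 24 h. Scaled to library size, the 28 counts at 72 h were 23.0 times the 2 in air (95% counting interval 5.8 to 199) and 4.4 times the 6 at 24 h (1.79 to 13). Its log2 fold change against air was 4.29 ± 0.84 (adjusted p = 0.0245), but Gata6 passed the filter only through the 72 h libraries, so this call is no support by itself. Without a filter edgeR gave an adjusted p of 6.19e-05, but that fit called 3416 of 30089 genes, against 1122 of 15753 with the filter. DESeq2 gave no adjusted p. The call was lost without 72 h replicate 2 or 72 h replicate 3 (log2 fold changes of 4.13 and 4.4), where 1 library is left at 72 h. Against 24 h the adjusted p was 0.0909.

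Prg4, Alox15, F5 and Icam2 were not called in any contrast of the 7 libraries. Their log2 fold changes at 72 h against air were 0.44 ± 0.28 (SE, edgeR adjusted p = 0.348), -0.95 ± 1.32 (0.683), -0.26 ± 0.93 (0.886) and -0.16 ± 0.23 (0.681), in that order. At 24 h against air edgeR and limma voom called 0 of the 6 tested members, DESeq2 0 of the 2 it tested, and 0 reached an unadjusted p under 0.05 in edgeR. Selp, with 0 counts at 72 h and in air, could not be compared at this depth. With air replicate 2 left out as well, 0.0064%, 2.44% and 10.4% of genes were called in the 3 contrasts, and 0, 1 (Gata6, adjusted p = 0.0323) and 1 (Timd4, 0.0246) of the members.

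Of the other serous cavity genes, 14 of 19 were tested in the 7 libraries. At 72 h against air 1 of the 14 was called, Thbs1, about the share of all genes called (7.12%, with 4.46% called higher). At 72 h against 24 h 3 were called, Thbs1, Tgfb2 and Ltbp1, all higher at 72 h, beside 15.1% of all genes (6.59% higher). Thbs1, a secreted activator of latent TGF-beta, had 11.5 and 13.4 CPM at 72 h, against 1.42, 2.03 and 2.84 CPM in air and 2.42 and 2.65 CPM at 24 h. It rose by 2.58 ± 0.24 (log2, SE, adjusted p = 0.00155) against air and by 2.31 ± 0.28 (adjusted p = 0.00641) against 24 h. Against air it was called whichever of the 7 libraries was dropped, with adjusted p of 0.000748 to 0.024. At 72 h against 24 h, Tgfb2 rose by 1.02 ± 0.18 (adjusted p = 0.0159). Ltbp1, at 2.74 ± 0.59 (0.0231), had 14 and 22 counts at 72 h, against 5, 8 and 5 in air and 2 and 3 at 24 h. Like Gata6, it passed the filter on low counts only through the 72 h libraries, so that its call is no support for a difference. Leaving out 1 library gave adjusted p up to 0.0591 for Thbs1 (lost without 24 h replicate 1, 72 h replicate 2 or 72 h replicate 3), 0.132 for Tgfb2 (without the same 3) and 0.147 for Ltbp1 (without any one of the 24 h or 72 h libraries).

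**Figure D4:**
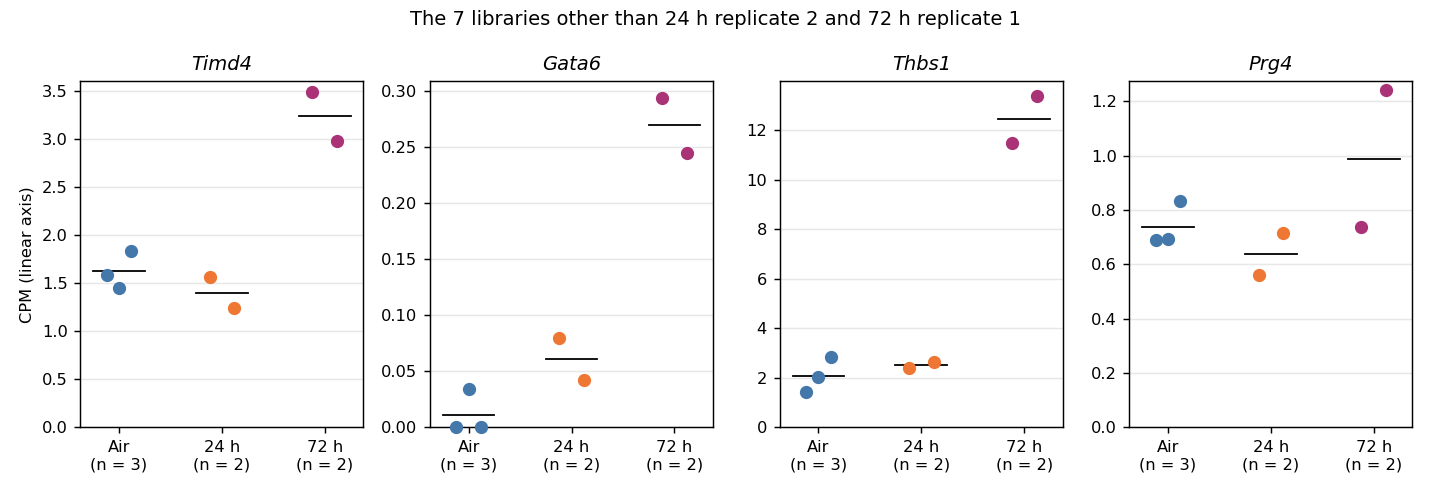
Level in CPM (linear axis, from 0) of Timd4, Gata6, Thbs1 and Prg4 in the 7 libraries other than 24 h replicate 2 and 72 h replicate 1; a point is 1 library and the bar is the mean of the group. Timd4 at 72 h (3.49 and 2.98 CPM) stands above air and 24 h, as do Gata6 and Thbs1, while one of the 72 h values of Prg4 lies within the range in air.

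Some markers of other cells were also higher at 72 h in the 7 libraries, and others were not. Interstitial macrophage genes summed to 19.0 and 19.8 CPM in the 72 h libraries, against 14.3, 12.1 and 13.6 CPM in air and 13.6 and 11.5 CPM at 24 h. Mast cell genes summed to 5.72 and 5.79 CPM at 72 h, nearly all of it Kit (5.66 and 5.71 CPM), against 2.25 to 2.8 CPM in air and 1.88 to 2.94 CPM at 24 h. T cell genes summed to 8.46 and 13.1 CPM at 72 h, against 2.74 to 9.63 CPM in air, and 5.0 and 5.44 CPM at 24 h, so that the 72 h and air libraries overlapped. B cell genes summed to 1.97 and 2.49 CPM at 72 h, against 1.69, 2.25 and 1.2 CPM in air and 5.98 and 3.1 CPM at 24 h. Platelet and megakaryocyte genes summed to 2.96 and 3.28 CPM at 72 h, within the range in air (1.96 to 3.74 CPM) and above 2.58 and 2.3 CPM at 24 h. The part of these markers in the values of Timd4, Gata6 and Thbs1 was not tested. The mesothelial genes Upk3b and Bnc1 had 0 counts in all 7, and the summed members stood at 6.12 and 6.19 CPM at 72 h, against 3.92, 3.53 and 6.0 CPM in air and 3.66 and 4.15 CPM at 24 h.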

How the data were processed

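Total RNA of lung macrophages from 9 mice was sequenced, 1 library a mouse. Per the submitters' processing notes, reads were handled with Trimmomatic 0.39, FastQC, Salmon and DESeq2 on GRCm38.p6; the sources used here give no other version, no annotation release, no options and no word on strand in counting. What the authors deposited is a table of estimated counts, 1 row a gene, unscaled for depth, of which 80.5% were whole to within 6 decimal places. An unnamed last column, with 3 symbols, was not used. GENCODE M21 matched 54107 of 54281 identifiers, 53544 with the version.

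The estimated counts were rounded and analysed in R 4.3.3 with edgeR 4.0.16: filterByExpr (15713 genes kept), TMM scaling, and 1 robust quasi-likelihood fit of the 9 libraries, with Benjamini-Hochberg adjustment over all genes tested and a threshold of 0.05. SE is the log2 fold change over the square root of F. The common biological coefficient of variation was 0.312, and 0.113 in the 7 libraries without 24 h replicate 2 and 72 h replicate 1. The fit was tested on simulated data with known changes. These had less spread than the 9 libraries and no libraries set apart, so they are no check on the members' results. No 2 libraries of a group were copies (chi-square per degree of freedom 6.82 to 128). An exact interval at 95% stands beside ratios.

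The members, the 24 gene lists and the choice of tests were made with earlier results of these data known, and the hepatocyte list was added later. Named are the 7 members, all 19 other serous cavity genes, and at least the 2 most abundant genes of each list among those that could mark other cells. The 10 nearest genes, among those tested that averaged at least 5 CPM in any group, are named too. Further list genes were named after their values were seen. The values of 1 gene are not reported here. Alternatives were DESeq2 1.42.0, limma 3.58.1 voom, other scalings, filters and pseudocounts, a replicate block, only the 6 libraries compared, and libraries left out.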

Additional observations from a re-analysis of the deposited data

How the results depend on the processing

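Over the scalings, filters, voom, the block and each library left out, 0 members were called in each of the 3 contrasts of the 9 libraries. Most of these settings keep both libraries for which the members were chosen, so their agreement is a description. Leaving out both libraries that carry the members gave 2 at 72 h against air and 1 at 72 h against 24 h, and leaving out air replicate 2 as well gave 1 and 1. Of the other serous cavity genes, 1 was called at 72 h against air with only the 6 libraries compared, without both libraries, and without both and air replicate 2. At 72 h against 24 h, 3 were called without both libraries and 4 without both and air replicate 2. Leaving out 1 library at a time gave 0 to 1 in both of these contrasts, the 1 being without 24 h replicate 2. In the 7 other libraries, 1 member was called at 72 h against air with at least 1 CPM in 3 libraries and 1 with DESeq2, in place of 2, since Gata6 was then not tested, and 0 to 2 with 1 library left out; Ltbp1 at 72 h against 24 h missed the threshold with DESeq2 (adjusted p = 0.0641). The members' medians with 1 library left out ran from -0.19 to 7.23 at 24 h against air, from 0.11 to 7.92 at 72 h against air, and from -4.99 to 5.94 at 72 h against 24 h; with voom the first pair were 2.71 and 3.19, and without both libraries the medians were -0.19, 0.14 and 0.33.

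The summed ratio of 72 h replicate 1 over 24 h replicate 2 was 1.36 with DESeq2 size factors and 1.40 without Prg4. The count of members past the 4-fold gap was 6 under the other scalings and a pseudocount of 2, and 7 with a pseudocount of 0.1. Replicate numbers do not pair the libraries (correlations of same-numbered deviations from -0.613 to 0.475). With the replicate number as a block, 0 members were called in each contrast, with medians of 5.16, 5.33 and 0.30, and over all genes 0, 35 and 1474 were called. Selp outside the pair, at 0 to 2 counts a library, lies below what this depth can compare.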
